A study of Homo sapiens with 24 samples.

Results

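The 37 genes described here encode the machinery that makes ribosomes in the nucleolus. They were listed by name and function, as gene rows for rRNA transcription, rRNA processing and ribosome assembly. No measured value enters that rule, although the list was drawn up with earlier results of these data known. All 37 were found among the 58676 gene rows of the count table. They fell into 6 roles, with 5 genes for RNA polymerase I transcription, 3 for box C/D and 4 for box H/ACA small nucleolar ribonucleoproteins (snoRNPs), 9 for assembly of the small (40S) subunit, 9 for assembly of the large (60S) subunit and 7 for nucleolar chaperones, scaffolds and a helicase.

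RNA was sequenced from HSJD-DIPG-007, a patient-derived H3K27-altered diffuse midline glioma (DMG) line, grown as spheroids. Every library therefore came from the same line, whose labelled alleles are H3F3A K27M, ACVR1 R206H and PIK3CA MIS. The cells received vehicle (DMSO) or LLY-283, an inhibitor of the arginine methyltransferase PRMT5, at the GI40, the concentration that lowers growth by 40 percent. Of 24 libraries, 12 belonged to each treatment, with 3 per treatment at days 0 and 5, 2 at day 7 and 1 at days 1, 2, 3 and 10. The libraries of days 0 to 3 and those of days 5 to 10 carry separate ranges of library numbers. The labels describe one dose, whereas the methods describe medium replaced with a second dose after day 5, which would reach the libraries of day 7 onwards. The libraries of one treatment and day were technical repeats, so every p-value measures the spread between such repeats and not between separate cultures.

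As background, ribosome production starts when RNA polymerase I, helped by UBTF and treacle (TCOF1), transcribes one long precursor rRNA. Guide RNAs packed in snoRNPs direct its methylation and pseudouridylation, large assemblies cut and fold it, and ribosomal proteins are added while the particles leave the nucleolus. Growing cells spend much of their transcription on this process, and many of its genes are known targets of the transcription factor MYC, which binds the E-box.

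Promoter letters are shown first, because that motif can be looked for in them. RefSeq promoter windows, 250 bases before to 50 bases after a transcription start on GRCh38.p14, were found for 30 of the 37 genes. The canonical E-box CACGTG, which reads the same on both strands, was in at least 1 window of 16 of these 30 genes (53.3%). It was in 29 of 120 other ribosome biogenesis genes with a window (24.2%) and in 2396 of all 27305 genes (8.77%). Genes differed in their number of windows, and the share over all genes was not limited to genes of like abundance. The match is a description of letters and not a binding site. The 4 windows below belong to GNL3, DDX21 and NOL6, which were lower with LLY-283 at day 5, and to NOP2, the only one of the 37 with a day 5 log2 fold change above 0. They lie at chr3:52685782-52686081 (plus strand) for GNL3, chr10:68956397-68956696 (plus strand) for DDX21, chr9:33473875-33474174 (minus strand) for NOL6 and chr12:6568242-6568541 (minus strand) for NOP2. Each reads 5′ to 3′ on the gene's strand, and capitals mark the E-box.
GNL3: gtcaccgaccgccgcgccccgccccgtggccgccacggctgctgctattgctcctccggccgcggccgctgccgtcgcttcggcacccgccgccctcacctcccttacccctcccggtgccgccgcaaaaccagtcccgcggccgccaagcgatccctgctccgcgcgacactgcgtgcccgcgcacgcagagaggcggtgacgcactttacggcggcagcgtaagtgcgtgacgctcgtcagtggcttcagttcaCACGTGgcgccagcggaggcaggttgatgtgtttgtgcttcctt
DDX21: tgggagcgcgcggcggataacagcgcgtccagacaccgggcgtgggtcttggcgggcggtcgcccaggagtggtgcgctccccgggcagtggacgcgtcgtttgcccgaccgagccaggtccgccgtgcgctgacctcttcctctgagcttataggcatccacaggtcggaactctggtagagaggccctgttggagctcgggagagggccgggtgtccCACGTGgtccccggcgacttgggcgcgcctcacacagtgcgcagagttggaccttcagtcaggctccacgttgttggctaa
NOL6: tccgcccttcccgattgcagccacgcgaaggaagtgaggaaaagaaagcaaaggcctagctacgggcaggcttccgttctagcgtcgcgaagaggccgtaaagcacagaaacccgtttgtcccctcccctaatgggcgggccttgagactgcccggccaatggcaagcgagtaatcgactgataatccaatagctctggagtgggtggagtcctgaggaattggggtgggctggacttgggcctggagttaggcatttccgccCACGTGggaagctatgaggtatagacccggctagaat
NOP2: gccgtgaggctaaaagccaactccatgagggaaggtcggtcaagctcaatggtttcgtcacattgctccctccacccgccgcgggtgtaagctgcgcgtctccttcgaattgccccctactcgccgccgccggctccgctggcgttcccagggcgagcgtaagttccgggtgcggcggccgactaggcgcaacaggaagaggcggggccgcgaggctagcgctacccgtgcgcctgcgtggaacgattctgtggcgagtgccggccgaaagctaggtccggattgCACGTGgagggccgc
The first base of the E-box was at position 7 for GNL3, -31 for DDX21, 14 for NOL6 and 36 for NOP2, counted from 1 at the transcription start of the window shown. GNL3 and DDX21 each have another window, for another start, without the motif. These lie at chr3:52685670-52685969 and chr10:68955920-68956219. The motif was thus present in the gene with the lowest day 5 fold change and in the gene with the highest. Over the 16 genes with the motif the median day 5 log2 fold change was -0.29, with 14 called lower. Over the 14 genes with a window and no motif it was -0.19, with 11 called lower. The 7 genes with no window, all called lower, had a median of -0.26. These medians were not tested against each other.

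Library totals lay between 13835205 and 23190369 counts, and the least abundant of the 37 genes averaged 36.8 CPM, a count expressed per library total after TMM scaling, so counting error was small. All 10 markers of oligodendrocyte precursor-like glioma cells had counts, with a sum between 7309 and 9479 CPM per library. The microglia and leukocyte markers summed to between 0.123 and 1.86 CPM, with C1QA, C1QB and TYROBP at 0 throughout. Of 8 neuronal markers 7 had counts, with a sum between 103 and 170.3 CPM, and NEFL was at 0. At day 7 repeats of one label stood apart, with a chi-square per degree of freedom of 11.2 (vehicle) and 13.4 (LLY-283) against 1.65 to 3.79 at days 0 and 5. The 15 fibroblast markers summed to 394 CPM in vehicle day 5 repeat 3, against 222 and 230.3 CPM in the other vehicle libraries and 314 to 315 CPM with LLY-283 on that day.

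At day 5 the ribosome biogenesis genes were lower in the LLY-283 libraries across nearly every step of the pathway. By edgeR's quasi-likelihood test at a Benjamini-Hochberg adjusted p under 0.01, 32 of the 37 genes (86.5%) were lower, none was higher and 5 did not pass. Of all 16491 genes tested, 14.1% were lower and 12% higher, and of the 6208 genes at least as abundant as the lowest of the 37, 29.3% were lower and 15.3% higher. The changes were modest in size. The log2 fold changes, LLY-283 less vehicle, ran from -0.46 to 0.18 with a median of -0.25, against 0.02 over all genes, and 36 of 37 were below 0. DESeq2 called none of the 37 higher and 29 lower, and without vehicle day 5 repeat 3, the library with high fibroblast markers, 30 were lower. The 37 genes took 0.823 to 0.847% of the counts in the 3 vehicle libraries and 0.714 to 0.731% in the 3 LLY-283 libraries, so the groups did not overlap. The libraries were bulk RNA, in which fewer cells of a type and less RNA per cell cannot be told apart.

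**Figure D1:**
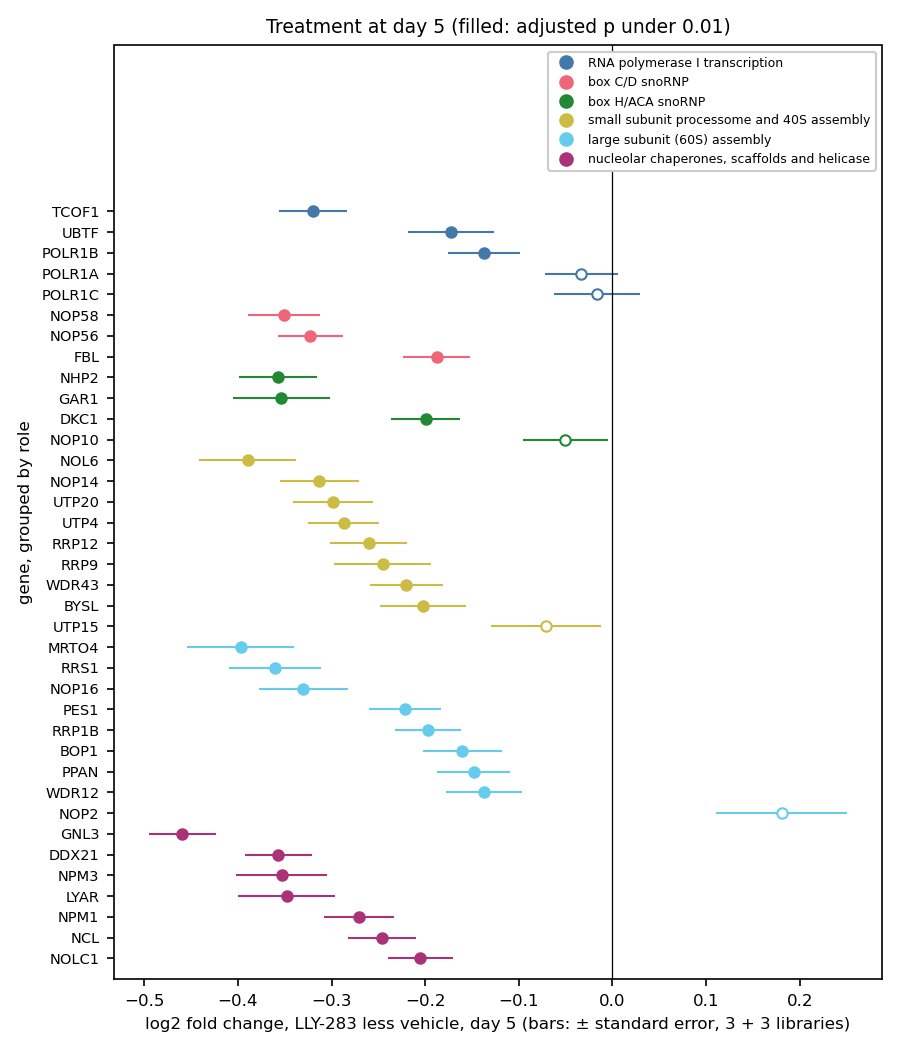
Log2 fold change at day 5, LLY-283 less vehicle (x axis), for each of the 37 genes (y axis), coloured by role, with bars of ± 1 standard error over 3 and 3 libraries and filled points where the adjusted p was under 0.01. 36 genes lie left of 0, from GNL3 at -0.46 to POLR1C at -0.02, and NOP2 alone lies to the right at 0.18.

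The nucleolar chaperones, scaffolds and helicase had the lowest median of the 6 roles, -0.35, with 7 of 7 lower. GNL3, or nucleostemin, a GTP-binding protein of the nucleolus of dividing stem and tumour cells (GRCh38 chromosome 3, 52681156 to 52694497), was at 248, 233 and 241 CPM in the vehicle libraries and at 178, 178 and 173 CPM in the LLY-283 libraries. The groups were well apart, at 240.9 ± 7.54 and 176 ± 2.90 CPM (SD, n = 3), and the log2 fold change was -0.46 ± 0.04 (SE, adjusted p = 7.98e-11). DDX21, an RNA helicase of rRNA transcription and processing (chromosome 10, 68956135 to 68985068), read 443, 428 and 454 CPM with vehicle and 365, 345 and 331 CPM with LLY-283. Again no library crossed over, and the log2 fold change was -0.36 ± 0.04 (adjusted p = 7.59e-09). The other members were NPM3, a nucleoplasmin-family chaperone (-0.35), LYAR, a nucleolar zinc finger protein (-0.35), and NOLC1, a scaffold for snoRNPs (-0.21). The most abundant pair changed less than GNL3 in log2 terms. NPM1 (nucleophosmin) read 1611, 1559.8 and 1535 CPM with vehicle and 1398, 1280.2 and 1249 CPM with LLY-283, a log2 fold change of -0.27 ± 0.04 (adjusted p = 1.54e-06). NCL (nucleolin) read 1659, 1589.6 and 1560.1 CPM against 1428, 1354 and 1299 CPM, or -0.25 ± 0.04 (adjusted p = 4.65e-06).

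The box C/D snoRNP proteins, which carry the guide RNAs for 2′-O-methylation of rRNA, were all lower (3 of 3, median -0.32). NOP56, a core scaffold of the particle (chromosome 20, 2652593 to 2658393), read 444, 431 and 434 CPM with vehicle and 349.7, 346 and 356 CPM with LLY-283. Its partner NOP58 (chromosome 2, 202265736 to 202303661) read 196, 182 and 198 CPM against 157, 147 and 149 CPM. Both pairs of groups were separate, with log2 fold changes of -0.32 ± 0.03 (adjusted p = 2.18e-08) and -0.35 ± 0.04 (adjusted p = 3.62e-08). FBL (fibrillarin), the methyltransferase itself and a known substrate of arginine methylation (chromosome 19, 39834458 to 39846379), read 367, 364 and 349 CPM against 334, 314 and 307 CPM. It was lower by a smaller amount, -0.19 ± 0.04 (adjusted p = 0.000122). Of the box H/ACA snoRNP proteins, which guide pseudouridylation, 3 of 4 were lower with a median of -0.28. NHP2, an RNA-binding core protein (chromosome 5, 178149463 to 178153894), read 117, 117 and 122 CPM with vehicle and 99.4, 92.8 and 87.9 CPM with LLY-283, a log2 fold change of -0.36 ± 0.04 (adjusted p = 1.03e-07). GAR1 was lower by a similar log2 amount (-0.35) and DKC1 (dyskerin, the pseudouridine synthase) by less (-0.20). NOP10, the smallest protein of the particle, overlapped between groups at 78.6 to 86.7 CPM with vehicle and 78.1 to 85.5 CPM with LLY-283, and its log2 fold change was -0.05 (adjusted p = 0.41).

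Of the 9 genes for the small subunit processome and 40S assembly, 8 were lower, with a median of -0.26. NOL6, a component of the processome (chromosome 9, 33461353 to 33473930), read 72.6, 71.9 and 66.5 CPM with vehicle and 51.0, 56.0 and 54.9 CPM with LLY-283, a log2 fold change of -0.39 ± 0.05 (adjusted p = 8.04e-07). UTP4, which joins the precursor early as part of the t-UTP complex (chromosome 16, 69131291 to 69231130), read 165, 153 and 157 CPM against 133, 132 and 127 CPM, or -0.29 ± 0.04 (adjusted p = 9.37e-07). RRP12, which acts in maturation and export of the subunits (chromosome 10, 97356358 to 97426076), read 97.1, 95.7 and 93.1 CPM against 79.3, 81.2 and 79.7 CPM, or -0.26 ± 0.04 (adjusted p = 1.19e-05). In each of these 3 genes the lowest vehicle library was above the highest LLY-283 library. The processome factors NOP14 (-0.31), UTP20 (-0.30), RRP9 (-0.25) and WDR43 (-0.22) and the late 40S factor BYSL (-0.20) were also lower. UTP15, another t-UTP protein, was the exception, with 35.7 to 40.6 CPM in the vehicle libraries, 35.4 to 36.2 CPM in the LLY-283 libraries and a log2 fold change of -0.07 (adjusted p = 0.37).

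Of the 9 genes for 60S assembly, 8 were lower, with a median of -0.20. MRTO4, which holds the place of the stalk protein P0 (-0.40), RRS1, which brings in the 5S RNP (-0.36), and NOP16 (-0.33) had the lowest values. The PeBoW complex, needed to process the 28S rRNA, was lower by less. PES1 (chromosome 22, 30576625 to 30607083) read 205, 193 and 188 CPM with vehicle and 171, 164 and 171 CPM with LLY-283, a log2 fold change of -0.22 ± 0.04 (adjusted p = 3.89e-05). Its partners BOP1 (-0.16) and WDR12 (-0.14), and also RRP1B (-0.20) and PPAN (-0.15), passed with small changes. NOP2, the 28S rRNA methyltransferase (chromosome 12, 6556863 to 6568691), went against the rest and is described here because of its value. It read 312, 287 and 261 CPM with vehicle and 312, 341 and 328 CPM with LLY-283. Its highest vehicle library (311.9 CPM) and lowest LLY-283 library (312.1 CPM) were almost equal, and its log2 fold change of 0.18 ± 0.07 did not pass (adjusted p = 0.087). It was called higher without a filter on low counts (adjusted p = 1.0e-04) or without vehicle day 5 repeat 1 (adjusted p = 0.0025).

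The genes for RNA polymerase I transcription had the median nearest 0 (-0.14), with 3 of 5 lower. TCOF1, whose product treacle recruits the polymerase to rDNA (chromosome 5, 150357629 to 150400308), read 173, 169 and 170.3 CPM with vehicle and 138, 139.9 and 135 CPM with LLY-283, a log2 fold change of -0.32 ± 0.04 (adjusted p = 6.92e-08). UBTF, which binds the rDNA promoter, was lower by -0.17 on the log2 scale. POLR1B, the second-largest subunit (chromosome 2, 112541915 to 112579818), read 105, 107 and 105 CPM against 97.8, 96.2 and 96.0 CPM, or -0.14 ± 0.04 (adjusted p = 0.00586). The log2 fold changes of POLR1A, the largest subunit (-0.03, adjusted p = 0.55), and of POLR1C, a subunit shared with RNA polymerase III (-0.02, adjusted p = 0.81), did not pass, and their libraries overlapped. By library range, 33 of the 37 genes did not overlap between treatments, 32 lower and 1 higher, against 45.2% of all genes tested (21.1% lower, 24.2% higher). The calls of POLR1B and WDR12 were each lost in 4 of the 6 fits that left out a single library. Those of UBTF, BOP1 and PPAN were each lost in 3 of these fits.

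Before treatment could act, the same comparison called no difference in these genes. At day 0 none of the 37 was called and 1 had an unadjusted p under 0.05, against 0.0169% and 5.69% of 17780 genes, and DESeq2 also called none. The median log2 fold change was 0.02, with 30 of the 37 above 0, against 8925 of the 17780 genes. Libraries did not overlap between treatments for 3 of the 37, against 10.9% of all genes. GNL3, for example, read 226, 247 and 246 CPM in the vehicle libraries and 247, 237 and 243 CPM in the LLY-283 libraries of day 0.

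On the days with 1 library per treatment, values are given without a test. The median log2 CPM difference over the 37 genes, LLY-283 less vehicle, fell from -0.08 at day 1 through -0.11 to -0.31 at day 3, while that of all genes at or over 1 CPM was -0.03, -0.02 and 0.002. The number of the 37 genes below their vehicle level was 33, 35 and 37 on these days. GNL3, which had the lowest day 1 difference of the 37 (-0.23), read 214 CPM in vehicle and 183 CPM in LLY-283 on that day. It read 204 against 183 CPM at day 2 and 220.0 against 173 CPM at day 3. TCOF1 read 166 against 163 CPM at day 1, 160.0 against 157 CPM at day 2 and 170.1 against 132 CPM at day 3. With 1 library per treatment, the order in which genes came apart cannot be told. NOL6 had the largest day 3 difference of the 37, -0.62 on the log2 scale, at 81.6 CPM with vehicle and 52.8 CPM with LLY-283. NOP2, which was higher by value at day 5, had the smallest at day 3 (-0.04).

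**Figure D2:**
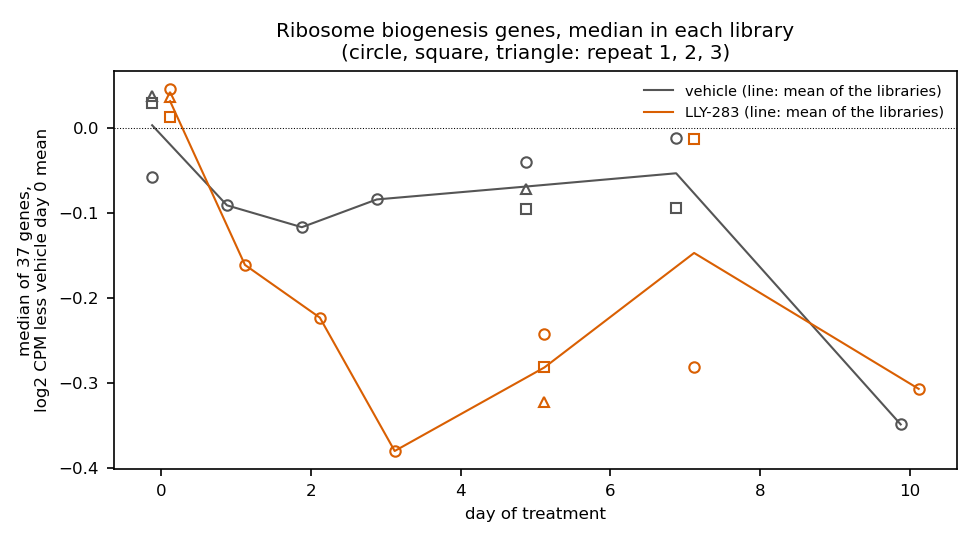
Median over the 37 genes of log2 CPM less the mean of the vehicle day 0 libraries (y axis) by day of treatment (x axis), 1 point per library and a line through the mean of each treatment. The LLY-283 points lie below the vehicle points at days 1 to 5, at -0.24 to -0.32 against -0.04 to -0.10 at day 5, whereas at day 7 LLY-283 repeat 2 lies at -0.01, beside vehicle repeat 1, and at day 10 the treatments are at -0.35 (vehicle) and -0.31 (LLY-283).

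**Figure D3:**
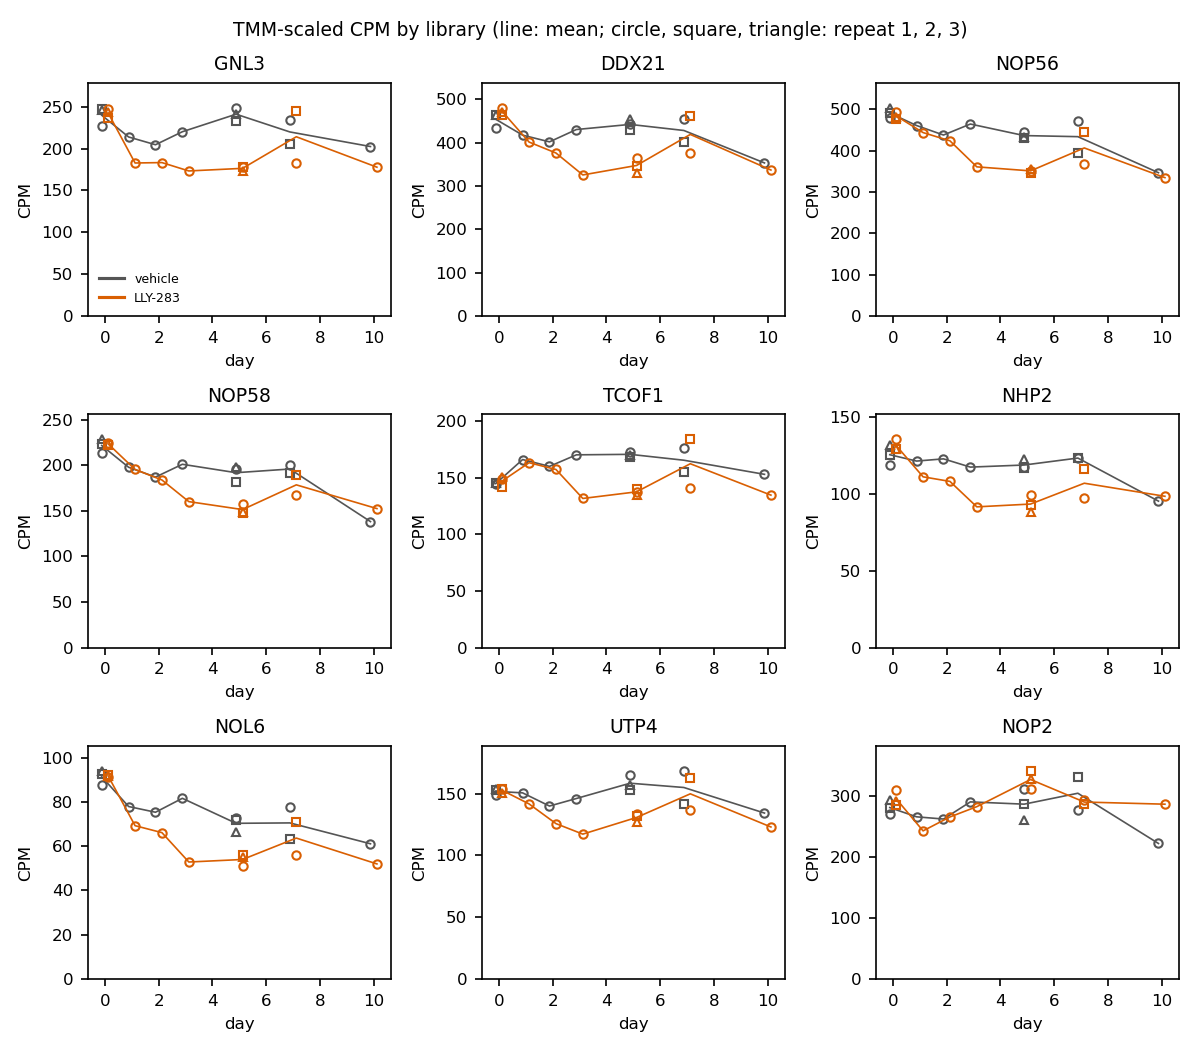
TMM-scaled CPM (y axes, from 0) of 9 genes by day (x axes), 1 point per library and a line through the mean of each treatment. For 8 of them the LLY-283 points of days 3 and 5 lie below the vehicle points, as for GNL3 at 173 to 178 CPM against 220.0 to 248 CPM, whereas for NOP2 the day 3 point lies just below (283 against 290.5 CPM) and the day 5 points do not.

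Without the drug these genes also differed between days 0 and 5, although rises (21.6%) were no more frequent than over all genes, unlike falls (35.1%). These days lie on either side of the split in library numbers, so time in culture and that split cannot be told apart. From day 0 to day 5 in vehicle, 8 of the 37 were higher and 13 lower, against 22.2% and 16.7% of 17106 genes (41.4% and 16% of the 6208 at least as abundant), and the median log2 fold change was -0.07. The 13 that fell were 5 of 9 genes for 40S assembly, 4 of 9 for 60S assembly, 2 of 3 for box C/D and 1 of 4 for box H/ACA snoRNPs, and 1 of 5 for RNA polymerase I. RRP12 went from 123, 129 and 125 CPM to 97.1, 95.7 and 93.1 CPM, a log2 fold change of -0.39 ± 0.04 (adjusted p = 3.27e-09). NOL6 went from 87.5, 92.5 and 93.9 CPM to 72.6, 71.9 and 66.5 CPM, or -0.36 ± 0.04 (adjusted p = 1.10e-07), and PES1 from 228, 248 and 245 CPM to 205, 193 and 188 CPM, or -0.29 ± 0.04 (adjusted p = 7.93e-07). The 8 that rose were POLR1B, FBL, TCOF1, RRP1B, NPM3, LYAR, POLR1C and NOP14. POLR1B went from 84.5, 87.5 and 90.5 CPM to 105, 107 and 105 CPM, or 0.28 ± 0.04 (adjusted p = 1.02e-06). FBL went from 282, 308 and 313 CPM to 367, 364 and 349 CPM, or 0.27 ± 0.04 (adjusted p = 1.65e-06), and TCOF1 from 144, 145 and 145 CPM to 173, 169 and 170.3 CPM, or 0.25 ± 0.04 (adjusted p = 1.62e-06). The count of 8 was 4 by DESeq2 or with library size alone, when 5346 and 6584 of all 17106 genes were called in either direction.

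With LLY-283 most of the pathway was lower at day 5 than at day 0. Here too time, exposure to the drug and the split in library numbers cannot be told apart. From day 0 to day 5, 30 of the 37 genes fell, 2 rose and 5 did not pass, against 19.5% and 22.9% of 17341 genes (28.4% and 35.5% of the 6208), with a median of -0.30. The furthest falls were in NOL6 (-0.76), RRP12 (-0.64), MRTO4 (-0.62) and RRS1 (-0.62). POLR1B (0.15) and NOP2 (0.15) rose. The change over these days was then tested between the treatments as an interaction. It was lower with LLY-283 for 28 of the 37 genes and higher for none, against 8.15% and 6.78% of 18369 genes (19.7% and 10% of the 6208), with a median log2 difference of -0.27. GNL3 was level in vehicle (0.02) and fell with LLY-283 (-0.46), an interaction of -0.47 ± 0.05 (adjusted p = 1.05e-07). DDX21 had a similar pattern, at -0.03 in vehicle, -0.44 with LLY-283 and -0.41 ± 0.05 for the interaction (adjusted p = 8.25e-07), as had NHP2 with an interaction of -0.42 ± 0.06 (adjusted p = 5.83e-06). TCOF1 differed in form, since it rose by 0.25 in vehicle and was at -0.10 with LLY-283 (adjusted p = 0.024), an interaction of -0.34 ± 0.05 (adjusted p = 6.51e-06). The comparisons at day 5 and over days 0 to 5 share libraries. In a shared fit of 22 libraries, whose estimate of the spread includes day 7, the interaction was called for 2 of the 37. That fit called 51 of all 20756 genes.

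**Figure D4:**
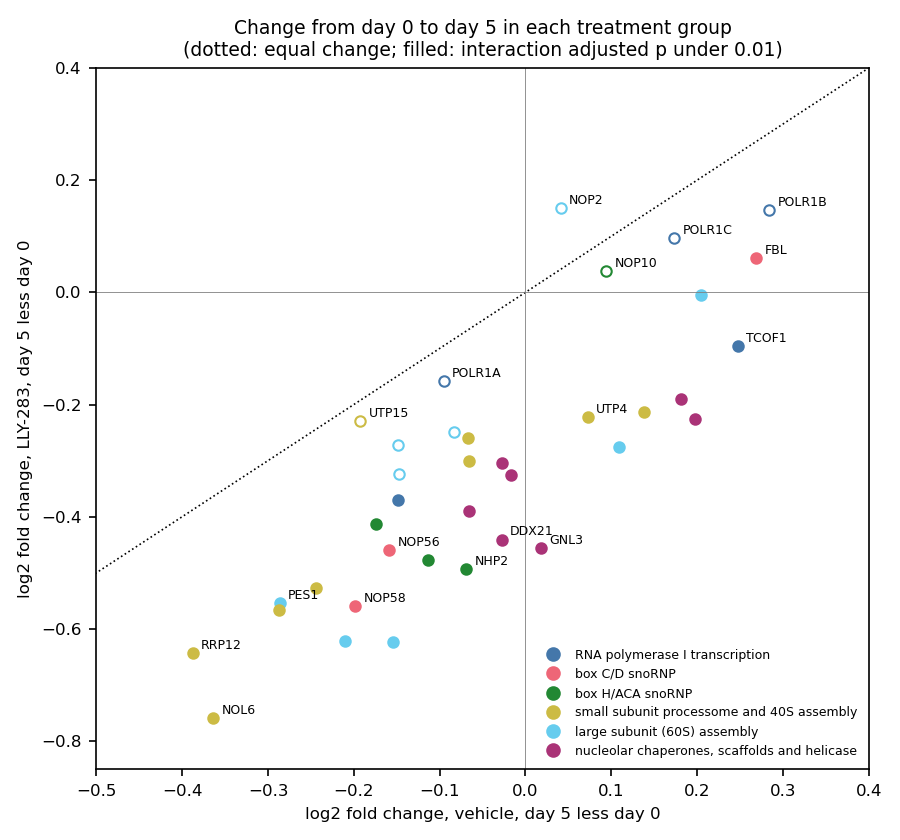
Log2 fold change from day 0 to day 5 in vehicle (x axis) and in LLY-283 (y axis), 1 point per gene, coloured by role and filled where the interaction passed an adjusted p of 0.01. All points but NOP2 lie below the dotted line of equal change, with NOL6 lowest at -0.36 and -0.76 and TCOF1 at 0.25 and -0.10.

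At day 7 the repeats of one label differed more from each other than on any other day with repeats. By label none of the 37 was called, none had an unadjusted p under 0.05 (0% and 1.4% of 16826 genes) and DESeq2 called none, with a median of -0.06. The typical spread between repeats was 12.4% at day 7 and 3.6% at day 5, so a change of the day 5 size was not detectable at day 7. Between the repeat 1 libraries the median log2 CPM difference of the 37 genes was -0.27, with 35 below 0. Between the repeat 2 libraries it was 0.04, with 21 above 0. GNL3 read 234 and 205 CPM in vehicle repeats 1 and 2 and 183 and 245 CPM in LLY-283 repeats 1 and 2. The library labelled LLY-283 repeat 2 was thus at the level of vehicle, for GNL3 as for DDX21 (461 CPM, against 455 and 401 CPM with vehicle). Labels were used as given, and whether any day 7 library carries the wrong one was not tested, a doubt that extends to the day 7 and time course counts. Library ranges did not overlap for 14 of the 37 genes, 13 of them lower with LLY-283, against 28.3% of all genes (18.5% lower).

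Over the time course of days 0 to 7 (22 libraries), the interaction of treatment with day was called for none of the 37 genes at an adjusted p under 0.01, against 0.0289% of 20756 genes. At an unadjusted p under 0.05 it was 27 of the 37, against 15.3% of all genes. The smallest adjusted p was 0.062, for RRS1, and DESeq2's likelihood ratio test called 7. The edgeR count of 0 became 15 without a filter on low counts and with every day 7 library kept, when 1217 of 43331 genes were called. It also rose in the fits that left out day 7 libraries, except the fit without vehicle day 7 repeat 2. Such fits left 1 library for a treatment at day 7, so their counts are not given. By DESeq2, and in each of these day 7 fits that called any of the 37, more of all genes were called too. Whether the 37 gained more than other genes was not tested. At day 10, with 1 library per treatment, the median difference was -0.02, with 19 of 37 genes below the vehicle level. The vehicle library itself differed from day 0, again across the split in library numbers. In it 33 of 37 genes were below day 0, with a median change of -0.35, the same as with LLY-283 (-0.35). NPM1, at 1545, 1696 and 1724 CPM in the vehicle libraries of day 0, was by day 10 down to 1228 CPM in vehicle and 1260.1 CPM in LLY-283.

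**Figure D5:**
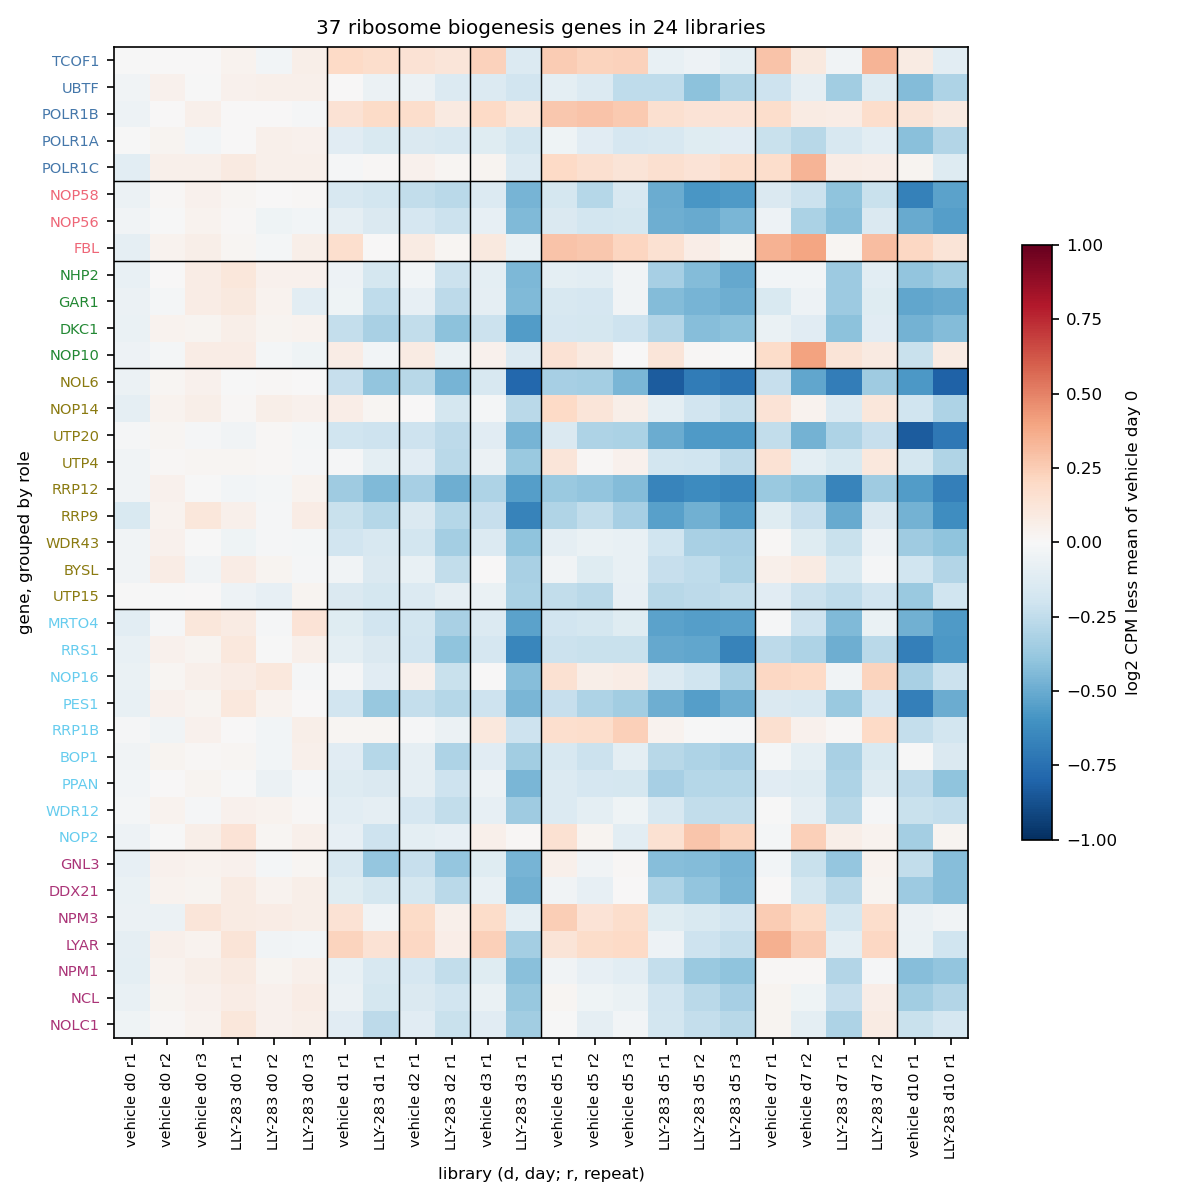
Log2 CPM less the mean of the vehicle day 0 libraries (colour, from -1 to 1) for the 37 genes (rows, by role) in all 24 libraries (columns, by day and treatment). The LLY-283 columns of days 3 and 5 are bluer than the vehicle columns of those days in most rows, LLY-283 day 7 repeat 2 resembles vehicle, and both day 10 columns are blue in most rows.

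Of the wider pathway, 138 other ribosome biogenesis genes were listed and tested at day 5. Of these, 83 (60.1%) were lower and none higher, with a median of -0.20 and 129 below 0. Over all 16491 genes tested 14.1% were lower, and over the 6208 at least as abundant as the lowest of the 37, 29.3%. The lower genes were 32 of 46 for the small subunit, 30 of 48 for the large subunit, 7 of 11 for RNA polymerase I and 6 of 9 for snoRNP assembly. For the exosome and RNase MRP they were 8 of 24 (33.3%), near the share of 29.3%. The smallest p-values were those of RRP7A, a processome factor (-0.42, adjusted p = 3.74e-09), POLR1G, a polymerase I subunit (-0.56, adjusted p = 1.49e-08), and URB2, a 60S factor (-0.38, adjusted p = 2.71e-08). The 3 nearest to a rise did not pass, namely TAF1C (0.19, adjusted p = 0.017), PIH1D1 (0.13, adjusted p = 0.073) and TAF1D (0.09, adjusted p = 0.078). These values come from the same 6 libraries as those of the 37 genes.

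MYC, the regulator named above, was lower at day 5 as well, at 463, 434 and 458 CPM with vehicle and 368, 357 and 357 CPM with LLY-283, a log2 fold change of -0.33 ± 0.03 (adjusted p = 1.41e-08). It rose from day 0 to day 5 in both treatments, by 0.82 in vehicle and 0.61 with LLY-283. Its partner MAX (-0.08, adjusted p = 0.26) and MYCN (0.32, adjusted p = 0.26) did not pass. The part of MYC in the result was not tested. PRMT5, which LLY-283 inhibits as an enzyme, had a log2 fold change of -0.11 ± 0.04 (adjusted p = 0.031), above the threshold. The 12 proliferation markers summed to 3011 to 3128 CPM in the vehicle libraries and 2379 to 2529.7 CPM in the LLY-283 libraries of day 5, and their part in the result was not tested. At day 0 that sum was 2296 to 2429.9 CPM in both treatments. The 37 genes summed to 8408, 8939 and 9029 CPM in vehicle at day 0 and to 8701, 8394 and 8363 CPM in vehicle at day 5. How these sums relate was not tested. On day 5 the neuronal markers summed to 109 to 113 CPM with vehicle and 159 to 169.8 CPM with LLY-283, and the oligodendrocyte precursor markers to 8510 to 8896 and 9203 to 9479 CPM. The part of these markers and of the fibroblast markers was not tested either.

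Levels differed widely between the 37 genes. Per kilobase of the MANE Select transcript, the mean level over 24 libraries was highest for NPM1 (1144 CPM per kb), then NCL (389), FBL (291) and NOP56 (223), and lowest for UTP15 (7.60). Some rows may share reads with a neighbour. PPAN overlaps P2RY11 and the PPAN-P2RY11 readthrough on its own strand, and NOP2 and RRS1 each overlap an annotated gene there. GNL3, NHP2, PES1 and UTP15 are among those with an exon overlap on the opposite strand, and whether counting used strand is not given in the sources used here. NCL, GNL3, NOP58, PPAN, WDR43 and POLR1C also carry snoRNA genes in their introns. In NOP56 and DKC1, and also in NCL, GNL3 and NOP58, snoRNA genes overlap an annotated exon on the same strand. Exons of every annotated transcript were used, so these snoRNA genes may still lie in an intron of another transcript.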

How the data were processed

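RNA of HSJD-DIPG-007 cells was measured in 24 libraries. The labels name poly(A) RNA and a directional library kit. The authors assigned reads to human transcripts with kallisto (hg38 per the submitters' processing notes; versions not given in the sources used here) and deposited estimated counts per gene, as whole numbers, not normalized. Gene rows were matched to symbols by Ensembl identifier in GENCODE v44, and 58207 of 58676 had one.

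From these counts, edgeR 4.0.16 (R 4.3.3) was run with TMM scaling, its filter on low counts by group, and quasi-likelihood tests with robust estimation. P-values were adjusted over all genes tested by the Benjamini-Hochberg method. Calls were made at an adjusted p under 0.01. All tests are 2-sided, and every adjusted p is from edgeR unless DESeq2 (1.42.0), run as an alternative, is named. Log2 CPM used a pseudocount of 0.5. Each treatment comparison used the libraries of its own day. Library totals of 13835205 to 23190369 counts set the precision, and intervals cover counting error and repeats only. On simulated data for the day 5 comparison (16491 genes), 78% of genes with a log2 change of 1 and 67% of those with 0.5 were recovered, against 61% and 6% for day 7 (16826 genes).

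The 37 genes, the roles, the list of 138 other ribosome biogenesis genes and the marker lists were chosen with earlier results of these data known. Values in every library are given for the 8 genes of smallest p at day 5, the 6 in vehicle day 5 against day 0 and the 4 in the interaction. NPM1, NCL, NOP2 and the genes named for their range were added after their values were seen. Of the other ribosome biogenesis genes, the 3 of smallest p in each direction are named. Alternatives were other scaling factors, filters, thresholds, tools, a replicate block, a shared fit and leaving out each library. Protein sequence features were not analysed here.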

Additional observations from a re-analysis of the deposited data

Results flagged for a closer look

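For 28 genes the change from day 0 to day 5 differed between the treatments by a test of the difference itself (edgeR interaction, adjusted p under 0.01), and each value is the log2 change with LLY-283 less that with vehicle. Among the genes for rRNA transcription, the difference was -0.21 for UBTF and -0.34 for TCOF1. Among the genes for the snoRNPs, the difference was -0.29 for NOP56, -0.35 for NOP58, -0.20 for FBL, -0.23 for DKC1, -0.36 for GAR1 and -0.42 for NHP2. Among the genes for 40S assembly, the difference was -0.34 for NOP14, -0.39 for NOL6, -0.18 for WDR43, -0.29 for UTP4, -0.27 for UTP20, -0.27 for RRP9, -0.25 for RRP12 and -0.23 for BYSL. Among the genes for 60S assembly, the difference was -0.26 for PES1, -0.38 for NOP16, -0.20 for RRP1B, -0.40 for RRS1 and -0.46 for MRTO4. Among the chaperones, scaffolds and helicase, the difference was -0.30 for NCL, -0.32 for NPM1, -0.42 for NPM3, -0.27 for NOLC1, -0.41 for DDX21, -0.47 for GNL3 and -0.37 for LYAR. All 28 were negative. The interactions of FBL (adjusted p = 0.014), UBTF (0.015) and WDR43 (0.016) did not pass with repeat number as a block. With 1 of the 12 libraries left out the count ran from 23 to 28, and the call was lost in 10 of 12 such fits for WDR43, 8 for UBTF, 8 for RRP9, 7 for FBL, 6 for BYSL and 1 for RRP1B. No other result was picked out, since groups of 4 or more libraries, in which a stray library could be looked for, were not present.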

How the results depend on the processing

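The day 5 result for the 37 genes kept its direction under each alternative run, with 27 genes lower with library size alone, 29 by DESeq2, 31 with the replicate block and 23 in the shared fit of 22 libraries, against 32. Leaving out 1 library gave 27 to 32 lower and 0 to 1 higher, and 1 gene (NOP2) was higher without a filter on low counts. The number of all genes called at day 5 changed with the setting too. It was 3315 of 17295 without vehicle day 5 repeat 1 and 4381 of 37305 without the filter. Whether the 37 shifted more than other genes was not tested. In vehicle from day 0 to day 5, library size alone gave 4 higher, 20 lower and a median of -0.12. DESeq2 gave 4 higher, the shared fit gave 4 higher and 6 lower, and leaving out 1 library gave 4 to 8 higher. In either direction, 6584 of all 17106 genes were called with library size alone and 5346 by DESeq2. The shared fit called 5095 of 20756. With LLY-283 over the same days, the count of 2 higher became 1 with library size alone, by DESeq2 and with the replicate block. It was 0 in the shared fit and 0 to 2 with 1 library left out. In either direction, 7401 of all 17341 genes were called with library size alone, 6069 by DESeq2 and 7918 with the block. The shared fit called 5493 of 20756. The interaction had a median of -0.24 with library size alone and medians of -0.31 to -0.26 with 1 library left out. In the shared fit its median was -0.31 and 2 genes were lower, with 51 of all 20756 genes called. The day 7 median ranged from -0.19 to 0.042 with 1 library left out. The time course count of 0 became 7 by DESeq2, 15 without a filter on low counts, 28 without both day 7 repeat 2 libraries and 0 to 19 with 1 library left out. In the time course, more of all genes were also called by DESeq2, without the filter and without both day 7 repeat 2 libraries. The cause of these shifts was not tested.

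Reversals of sign were limited to values near 0. With library size alone they were POLR1C at day 5 (0.012), NOP2 (-0.014) and GNL3 (-0.036) in vehicle over time, and UTP15 in the interaction (0.0055). With at least 10 counts in every library GNL3 in vehicle was at -0.0071. With 1 library left out, the signs that turned were in vehicle those of GNL3 (-0.017 to 0.049), NOP2 (-0.011 to 0.12), NOLC1 (-0.046 to 0.0060), DDX21 (-0.055 to 0.0027) and NCL (-0.048 to 0.015), in LLY-283 those of RRP1B (-0.024 to 0.018) and NOP10 (-0.0046 to 0.075), and in the interaction that of UTP15 (-0.071 to 0.022). Repeat numbers showed no pairing of the libraries on days 0 and 5. Deviations of same-numbered libraries correlated between -0.13 and -0.02 on day 0 and between 0.0002 and 0.03 on day 5. On day 7 the correlation was -0.26 for same-numbered and 0.26 for crossed libraries. With 2 libraries per group these are mirror images, so day 7 cannot decide the pairing. Besides the counts above, the block removed the calls of WDR12 at day 5, NOP14 in vehicle, NOP2 in LLY-283, and FBL, UBTF and WDR43 in the interaction. A crossed pairing at day 7, added after the data were seen, called 0 of the 37. Days with 1 library per treatment had no test, and depth did not limit these abundant genes as much as the spread at day 7 did.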
